A study of Mus musculus with 20 samples.

Results

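Genes that moved in the same direction in the cold in both DPP4+ and DPP4- adipocyte progenitor cells are described here. A gene counted as shared when its cold effect had the same sign in both populations and an unadjusted two-sided p under 0.05 (limma) in each population by itself. Of 13057 genes tested, 911 met this: 410 rose (3.14% of the genes tested) and 501 fell (3.84%) in both populations. The cells were PDGFRb+ cells from the inguinal white fat, a subcutaneous depot of the groin, taken from male C57BL/6 mice and divided by flow cytometry on the surface peptidase DPP4. Mice were kept at 22 °C or at 6 °C for 24 h, and each combination of population and temperature had 5 RNA-seq libraries (20 in all). Ages, genotypes and the pooling of animals are not given in the sources used here. All groups share the strain, the sex and the PDGFRb+ sort, so the data do not bear on other strains, on females or on PDGFRb- cells. Nothing in the labels says that the libraries came from separate mice, so p-values measure only the spread between these libraries, which may in part be technical.

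In the cold, sympathetic nerves release noradrenaline in white fat, and adipocytes with thermogenic capacity, called beige or brite adipocytes, appear in the subcutaneous depots. Progenitors of the depot supply part of these cells and also build the collagen-rich matrix between adipocytes. DPP4+ cells are known as interstitial progenitors that lie early in the lineage, and DPP4- cells include committed preadipocytes. Unfolded or newly made secretory proteins are handled in the endoplasmic reticulum (ER) by chaperones such as Hspa5 (BiP) and Hsp90b1 (GRP94), whose genes are switched on together by the transcription factors ATF6 and XBP1. Glucocorticoids act through a nuclear receptor that induces a small common set of genes in most tissues, among them Fkbp5 and Tsc22d3 (GILZ).

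Values are the authors' normalized counts, and cold effects are differences of log2(value + 1), 6 °C minus 22 °C, with their standard errors (SE). Where a pair of effects is given, that of DPP4+ cells comes first, and a level written as a span, lowest–highest, covers the 5 libraries of a group. Libraries held 8.49 to 18.8 M reads (M, 1000000) in genes, and a gene was tested only with a mean over the 20 libraries of 10 or more. Dpp4, the sort marker, read 7170.5 to 9994 at 22 °C and 7871 to 13270 at 6 °C in DPP4+ cells and 52.2 to 105 at 22 °C and 37.8 to 137 at 6 °C in DPP4- cells. The level of Dpp4 in DPP4- libraries was 0.795% of that in DPP4+ libraries at 22 °C and 0.611% at 6 °C, with the highest values in DPP4- replicate 1 at both temperatures (105 and 137). Ren1 (renin) and Sptssb (a subunit of serine palmitoyltransferase), which read almost only in cold DPP4+ libraries, changed in DPP4- cells by 0.135% and -0.165% of their change in DPP4+ cells. None of the 911 shared genes had a change in DPP4- cells as small, relative to DPP4+ cells, as the Dpp4 share (0 of 410 rises and 0 of 501 falls), and 1 rise and 6 falls lay within 5 times that share. The rule asked for a nominal change in DPP4- cells, which leaves out most changes that small, so these counts follow in part from the rule. The part of DPP4+ cells in the DPP4- libraries was not tested. Pdgfrb, on which all cells were sorted, averaged 2942 ± 226 and 1505 ± 80.7 in DPP4+ cells and 4126 ± 333 and 4124 ± 543 in DPP4- cells at 22 °C and 6 °C (SD, n = 5), and the progenitor marker Pdgfra 11512 ± 419 and 5287 ± 462, and 9894 ± 641 and 10676 ± 1323. Because bulk RNA was measured, a lower value cannot be told apart between less RNA per cell and fewer cells that carry it.

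Averaged over both populations, the cold effect passed an adjusted p of 0.05 for 2344 genes higher (18.0%) and 2363 lower (18.1%) in the cold, 4707 in all (36.0%). Of these, 911 were the shared genes, 134 had opposite signs at unadjusted p under 0.05 in each population, 3234 passed in DPP4+ cells only and 387 in DPP4- cells only, while 41 passed in neither alone. In DPP4+ cells by themselves 3489 genes were higher (26.7%) and 3374 lower (25.8%) at unadjusted p under 0.05, against 1258 higher (9.63%) and 1422 lower (10.9%) in DPP4- cells. With library totals set equal instead, 763 genes rose and 296 fell in both populations, and the median effect over all genes moved to 0.097 in DPP4- and -0.0399 in DPP4+ cells; the direction of each of the 911 genes was the same. The shared rises of the deposited scale were 32.6% of the DPP4- rises and 11.8% of the DPP4+ rises. The shared falls were 35.2% of the DPP4- falls and 14.8% of the DPP4+ falls. A further 623 genes (4.77%) passed in each population with opposite signs. They were 304 genes higher in DPP4+ and lower in DPP4- cells, 21.4% of the DPP4- falls, and 319 of the reverse kind, 25.4% of the DPP4- rises. Across the 13057 genes the cold effects of both populations had a Pearson r of 0.0199 and a Spearman rho of 0.0441, given as a description, since genes are not independent.

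**Figure D1:**
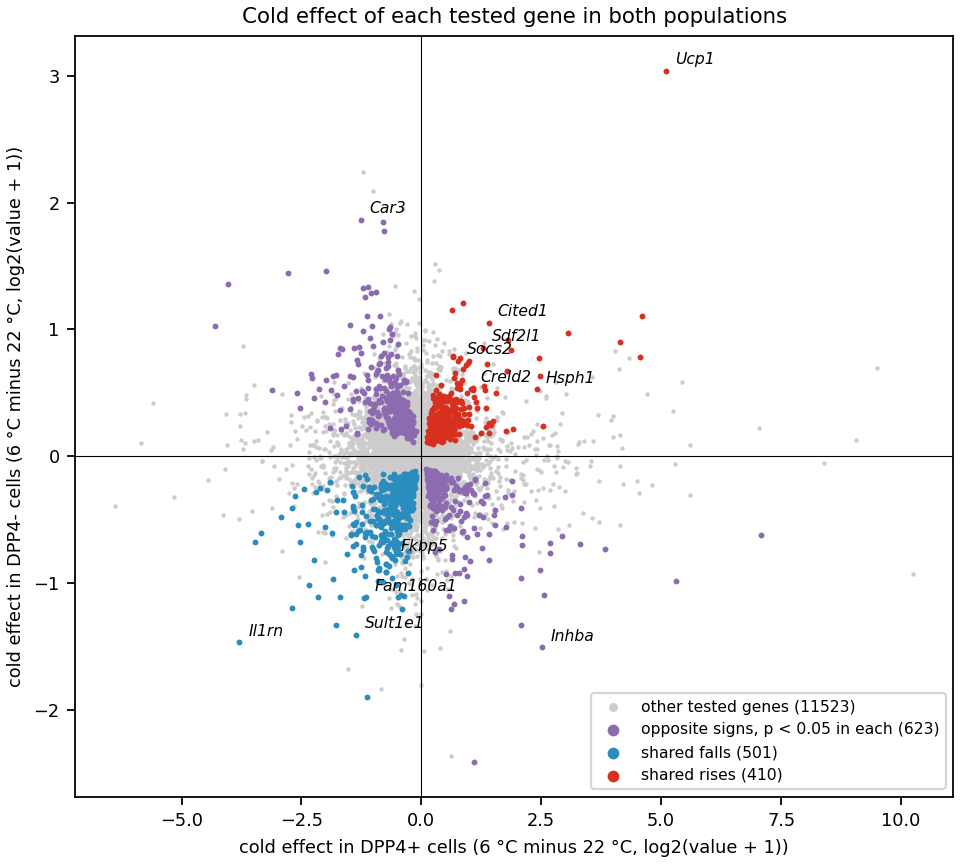
Cold effect of each tested gene (6 °C minus 22 °C, log2(value + 1)) in DPP4+ cells on the x axis and in DPP4- cells on the y axis, 1 point per gene. The 410 shared rises lie at the upper right and the 501 shared falls at the lower left, beside 623 genes with opposite signs, and the x axis spans a wider range than the y axis.

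The median effect of the shared rises was 0.40 in DPP4+ and 0.24 in DPP4- cells, and that of the shared falls -0.49 and -0.32, against 0.01 and 0.00 over all genes tested. The effect was the larger one in DPP4+ cells for 347 of 410 rises and 361 of 501 falls. The difference of the cold effects passed an adjusted p of 0.05 (limma) for 4329 of all tested genes (33.2%), for 95 of the rises, all with the larger effect in DPP4+ cells, and for 118 of the falls, 109 of them with the larger effect in DPP4+ cells. At least 1.5-fold in each population were 26 rises and 70 falls, and at least 2-fold were 3 rises and 10 falls. In both populations all 5 cold libraries lay beyond all 5 warm ones for 57 shared rises and 103 shared falls, beside 60 genes (0.460%) and 111 genes (0.850%) among all tested. In DPP4- cells alone this held for 79 shared rises, where 1.65% of all tested genes had it, and for 171 shared falls, where 3.22% had it; in DPP4+ cells it held for 311 rises and 342 falls, beside 19.4% and 19.0% of all genes. The same 20 values chose the shared genes, so these counts describe them and nothing is read from the shares. When each of the 20 libraries was left out in turn, 179 rises and 274 falls met the rule every time, and the genes given with values below are from these unless stated. The rule has a threshold: Tmem222, Dagla and Dazap2 lay just inside it (p in DPP4- cells 0.0498, 0.0498 and 0.0499), and Cep250 and Fhdc1 just outside (p in DPP4- cells 0.05005 and 0.0503).

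The largest shared rise was Ucp1, the proton carrier by which mitochondria of brown and beige adipocytes make heat. Ucp1 read 0, 1.31, 1.45, 0.626 and 0.727 at 22 °C and 81.1, 63.8, 45.6, 56.3 and 52.4 at 6 °C in DPP4+ cells. Ucp1 read 0, 0, 1.26, 0 and 0 at 22 °C and 5.36, 8.18, 8.10, 5.65 and 23.05 at 6 °C in DPP4- cells. Every cold library was above every library at 22 °C in both populations, with the DPP4- cold libraries between 5.36 and 8.18 except replicate 5 at 23.05. The cold effect was 5.10 (SE 0.38) in DPP4+ and 3.04 (SE 0.38) in DPP4- cells (average 4.07, adjusted p = 3.71e-11, limma, 5 libraries a group), the effects differed by 2.06 (adjusted p = 0.00447, limma), and the same libraries chose the gene. The change in DPP4- cells was 16.6% of that in DPP4+ cells, where the Dpp4 share was under 0.8%, and the part of DPP4+ cells in it was not tested. These DPP4- levels rest on few reads per library, and without DPP4- cold replicate 5 the effect there was 2.71. Mature adipocyte genes had medians of opposite sign. Of 14 tested, none was shared, 8 were lower in DPP4+ cells (25.8% of all tested genes) and 10 were higher in DPP4- cells (9.63%). Of these, 5 passed in opposite directions, and the list medians were -0.84 and 0.86. The part of mature adipocyte genes in the Ucp1 rise was not tested. Plin1, which coats lipid droplets, had means of 342 and 172 in DPP4+ cells and 35.8 and 129.6 in DPP4- cells at 22 °C and 6 °C. Of 11 thermogenic genes tested, Ucp1 was the only shared one (background of shared rises 3.14%). Opposite signs were seen for 2 (background 4.77%), and the medians were -0.12 and 0.31.

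Several of the next largest rises were of similar size in both populations. Cited1, a transcriptional coactivator that is used as a beige adipocyte marker, read 5.24 to 11.3 at 22 °C and 16.4 to 24.7 at 6 °C in DPP4+ cells and 21.6 to 48.9 at 22 °C and 51.0 to 90.0 at 6 °C in DPP4- cells, with no overlap between temperatures in either. Its effects were 1.41 (SE 0.22) and 1.05 (SE 0.22) (average adjusted p = 1.55e-06, limma). Socs2, a suppressor of growth hormone and cytokine signalling, had nearly equal effects. Socs2 read 459, 479, 428, 422 and 408 at 22 °C and 852, 740.3, 738, 810.1 and 604 at 6 °C in DPP4+ cells. Socs2 read 103, 107, 85.7, 78.3 and 73.3 at 22 °C and 134, 149.97, 190.3, 136 and 144 at 6 °C in DPP4- cells. Both populations separated fully by temperature although the DPP4- level was the lower one. The effects were 0.76 (SE 0.11) and 0.75 (SE 0.11) (average 0.76, adjusted p = 5.52e-08, limma), and their difference was 0.0086 (adjusted p = 0.973). Ghr, the growth hormone receptor, through which Socs2 is induced, was a shared fall (-0.43 and -0.18) that left the rule without any of 3 DPP4- libraries, 22 °C replicate 1 or 6 °C replicate 2 or 3.

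Epb41l4b, a FERM domain protein of the membrane skeleton, rose by 0.81 in DPP4+ and 0.78 in DPP4- cells. Nnat, an imprinted membrane proteolipid, rose by 0.96 and 0.74. In 4 other members the effect on the log2 scale was larger in DPP4+ cells (adjusted p of the difference under 0.05, limma). Plekha6, a pleckstrin homology domain protein, rose by 1.37 and 0.73. Masp1, a serine protease that starts the lectin pathway of complement, went from 4.34–9.82 to 40.4–80.2 in DPP4+ cells and from 9.01–24.6 to 24.1–42.8 in DPP4- cells, where the groups overlapped narrowly (effects 3.05 and 0.97). Cyp4b1, a cytochrome P450 monooxygenase, went from 15.5–40.7 to 78.2–104 and from 134–198 to 238–327, with no overlap in either population (effects 1.87 and 0.84). Celsr3, a cadherin of the flamingo family, went from 19.3–27.5 to 91.2–174 and from 10.7–22.5 to 13.6–34.9. In normalized counts, the DPP4- rises were 10.04% (Celsr3), 32.0% (Masp1) and 193% (Cyp4b1) of the DPP4+ rises, so that Cyp4b1 gained more counts in DPP4- cells, from a higher level. Clstn3, F5, Car4, Peg3 and Tmod1 also ranked among the 15 largest rises, and they met the rule in only 12 to 18 of the 20 fits that left out a library.

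Among the gene lists used, that of protein folding in the ER had the highest share of shared rises. Of 23 tested members of the ER folding and unfolded protein response list, 10 were shared rises (background 3.14%) and none was a shared fall. They were Sdf2l1, Creld2, Hyou1, Hspa5, Syvn1, Manf, Calr, Hsp90b1, Dnajb11 and Pdia6, and all 10 met the rule without each of the 20 libraries in turn. The list medians were 0.41 in DPP4+ and 0.13 in DPP4- cells, against 0.01 and 0.00 for all genes tested. In DPP4+ cells 21 of the 23 were higher at unadjusted p under 0.05 (26.7% of all tested genes) and in DPP4- cells 11 were (9.63%). In DPP4- cells 2 members were lower, 1 of them with opposite signs, being higher in DPP4+ cells. Of the members outside the shared group most passed in DPP4+ cells alone. Among these were the sensor Ern1 (IRE1; 0.71 and -0.13), the transcription factor Xbp1 (0.32 and 0.11) and the lectin chaperone Canx (0.38 and 0.040). Herpud1, a component of ER-associated degradation, passed in DPP4- cells alone (0.21 and 0.35).

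Promoters of these genes are shown because 6 of 8 with a promoter in the RefSeq table held the ER stress element, the site through which ATF6 acts together with the CCAAT-binding factor NF-Y. The letters searched were CCAAT, any 9 bases and CCACG, on both strands, a motif added after the values had been seen, in the 250 bases before and 50 bases after the first listed start of each gene (RefSeq, GRCm38.p6). The element was found in Calr, Creld2, Hsp90b1 (2 matches), Hspa5, Pdia6 and Syvn1 and not in Dnajb11 or Sdf2l1. It was in 16 of 10133 promoters of tested genes (0.158%), 8 of 317 of shared rises (2.52%) and 0 of 395 of shared falls. The 16 and the 8 both include the 6 promoters just named. List members outside the shared group were not counted as a set. These shares therefore cannot tell a trait of the shared genes from one of the ER list, and the part of ATF6 was not tested. CCAAT alone, which is part of the element, was in 8 of 8 of these promoters and in 38.9% of all. In the 4 sequences below (5′ to 3′ in the direction of the gene) the capitals mark the element, which reads CCACG last on the gene's strand in Hspa5, Syvn1 and the first Hsp90b1 match and as its reverse complement, starting CGTGG, in Creld2 and the second.
Hspa5 (chr2:34771840-34772139, plus strand): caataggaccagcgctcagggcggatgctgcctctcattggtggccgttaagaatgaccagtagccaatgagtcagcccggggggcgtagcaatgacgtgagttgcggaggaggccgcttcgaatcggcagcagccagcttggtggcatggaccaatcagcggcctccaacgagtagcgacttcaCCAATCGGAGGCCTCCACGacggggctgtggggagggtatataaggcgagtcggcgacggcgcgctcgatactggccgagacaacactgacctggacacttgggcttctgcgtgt
Hsp90b1 (chr10:86705395-86705694, minus strand): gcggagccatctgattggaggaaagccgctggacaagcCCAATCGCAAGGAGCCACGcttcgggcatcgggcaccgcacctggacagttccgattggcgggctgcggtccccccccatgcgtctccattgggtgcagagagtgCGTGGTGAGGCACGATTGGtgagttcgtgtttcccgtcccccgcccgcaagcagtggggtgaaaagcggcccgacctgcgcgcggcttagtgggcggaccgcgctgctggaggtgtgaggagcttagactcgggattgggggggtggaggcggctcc
Creld2 (chr15:88819396-88819695, plus strand): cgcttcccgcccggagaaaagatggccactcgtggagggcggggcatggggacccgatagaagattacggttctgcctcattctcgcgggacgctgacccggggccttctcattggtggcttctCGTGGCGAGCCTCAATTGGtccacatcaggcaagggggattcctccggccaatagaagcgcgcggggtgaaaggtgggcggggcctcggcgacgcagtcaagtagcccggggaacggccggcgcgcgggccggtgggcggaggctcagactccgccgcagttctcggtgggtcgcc
Syvn1 (chr19:6046326-6046625, plus strand): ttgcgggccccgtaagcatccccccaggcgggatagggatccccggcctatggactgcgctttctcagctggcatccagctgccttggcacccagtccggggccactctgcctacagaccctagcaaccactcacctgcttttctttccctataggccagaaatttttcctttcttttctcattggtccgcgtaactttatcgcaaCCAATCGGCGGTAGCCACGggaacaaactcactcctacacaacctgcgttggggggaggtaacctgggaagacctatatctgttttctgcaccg

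Sdf2l1, an ER luminal partner of DnaJ co-chaperones, had the largest effect in both populations. Sdf2l1 read 218, 255, 263, 247 and 274 at 22 °C and 661, 532, 607, 638 and 646 at 6 °C in DPP4+ cells. Sdf2l1 read 132, 122, 95.7, 103 and 113 at 22 °C and 249, 183, 134, 239 and 241 at 6 °C in DPP4- cells. The temperatures did not overlap in either population, although DPP4- cold replicate 3 lay only just above the warm libraries. The effects were 1.29 (SE 0.13) and 0.85 (SE 0.13) (average 1.07, adjusted p = 6.23e-09, limma).

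Creld2, an ER protein induced by ER stress, separated fully as well. Creld2 read 407, 407, 350.3, 432 and 427 at 22 °C and 891, 746, 805, 948 and 770.3 at 6 °C in DPP4+ cells. Creld2 read 401, 408, 322, 329 and 386 at 22 °C and 602, 470.4, 489, 536 and 569 at 6 °C in DPP4- cells. The DPP4- cells started at a similar level and rose less, with effects of 1.04 (SE 0.086) and 0.53 (SE 0.086) (average adjusted p = 5.92e-10) and a difference of 0.51 (adjusted p = 0.00243, limma).

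Syvn1 (HRD1), the ubiquitin ligase of ER-associated degradation, had the smallest spread of the 3. Syvn1 read 579, 594, 595, 598 and 586 at 22 °C and 961, 926, 996, 945 and 936 at 6 °C in DPP4+ cells. Syvn1 read 736, 748, 753, 768 and 806 at 22 °C and 939.8, 933, 1078, 962 and 976 at 6 °C in DPP4- cells. Both populations reached about the same level in the cold, and the DPP4- cells came from a higher one. The effects were 0.69 (SE 0.048) and 0.36 (SE 0.048) (average adjusted p = 2.93e-11, limma). Hspa5 (BiP) went from a mean of 13888 to 27337 in DPP4+ cells and from 24512 to 30076 in DPP4- cells.

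**Figure D2:**
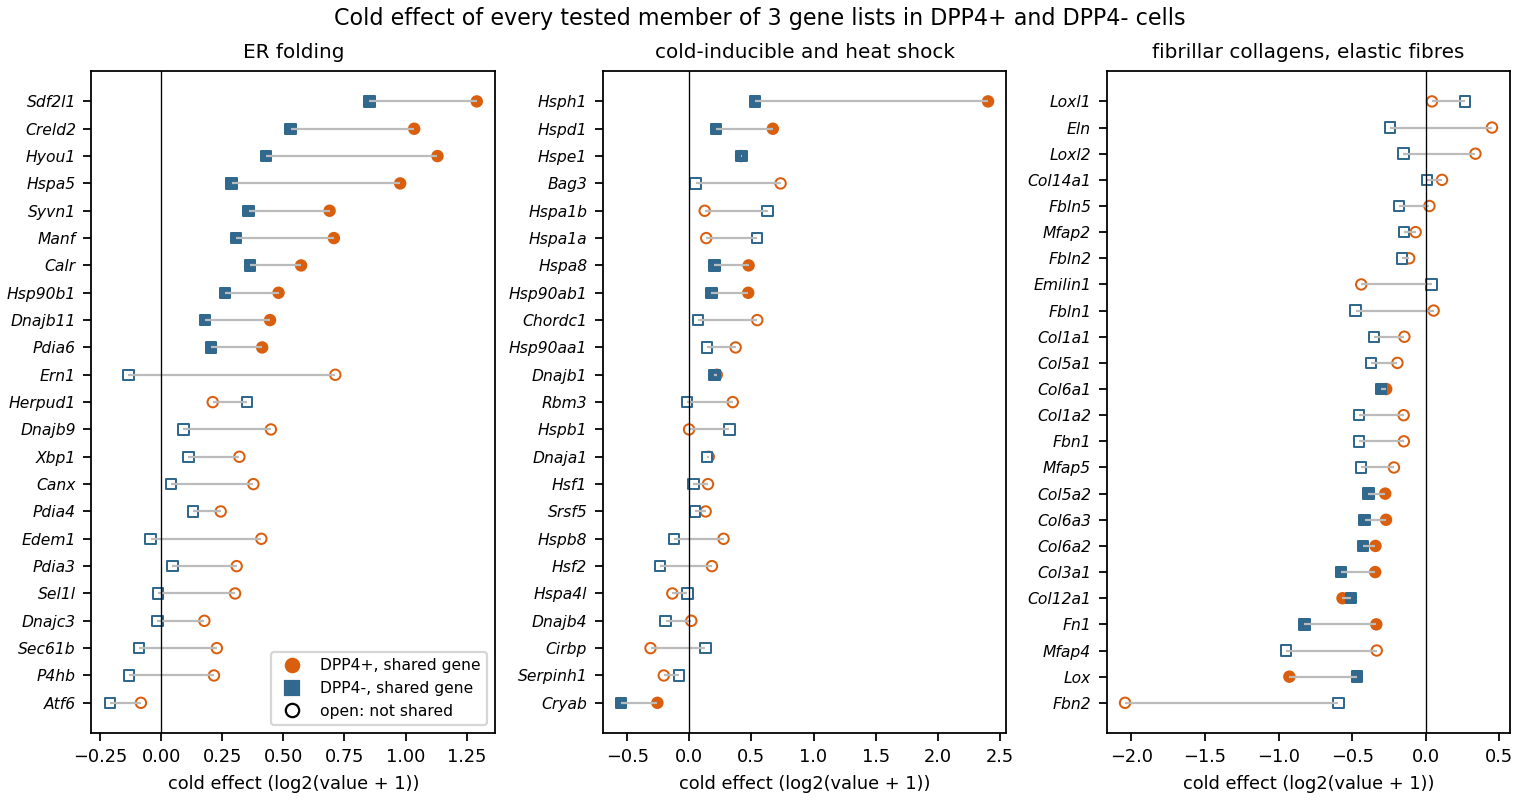
Cold effect (log2(value + 1), 6 °C minus 22 °C) of every tested member of the ER folding, heat shock and fibrillar collagen lists, circles for DPP4+ and squares for DPP4- cells, filled where the gene was shared. All 10 filled ER genes lie above 0 with the DPP4+ effect the larger one, and all 8 filled collagen and elastic fibre genes lie below 0.

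Cytosolic and mitochondrial heat shock genes rose in part. Of 23 tested members of the cold-inducible and heat shock list, 6 were shared rises (Hspd1, Hspe1, Hsp90ab1, Hsph1, Dnajb1 and Hspa8) and 1, the small heat shock protein Cryab, was a shared fall (-0.26 and -0.55). The background was 3.14% shared rises and 3.84% shared falls. Medians of the list were 0.18 and 0.13. The count rested on single libraries: 2 rises were left without DPP4- cold replicate 3, and only Hspe1 and Hsph1 met the rule without each library in turn. Hspe1 (chaperonin 10 of the mitochondrial matrix) had equal effects. Hspe1 read 450.2, 462, 436, 442 and 454 at 22 °C and 638, 579.9, 579, 681 and 531 at 6 °C in DPP4+ cells. Hspe1 read 365, 462, 496, 476 and 402 at 22 °C and 503, 589, 733, 606 and 527 at 6 °C in DPP4- cells. All cold libraries were above all warm ones in both populations, narrowly so in DPP4- cells, where cold replicate 3 was the highest. The effects were 0.42 (SE 0.092) and 0.42 (SE 0.092) (average adjusted p = 1.97e-05, limma), and their difference was -0.0048 (adjusted p = 0.982). Hsph1 (HSP110), a nucleotide exchange factor of HSP70, went from 954–1117 to 3918–6422 in DPP4+ cells and from 1562–2948 to 2244–4778 in DPP4- cells, where the groups overlapped (effects 2.40 and 0.53). The cold-inducible RNA-binding proteins Cirbp (-0.31 and 0.13) and Rbm3 (0.35 and -0.018) were not shared.

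The promoters of both stable members are shown because they held the heat shock element searched (TTC, any 2 bases, GAA, any 2 bases and TTC, on both strands), which 44 of 10133 promoters held (0.434%) and 3 of 317 of shared rises. Dnajb1 and Hspd1 did not hold it in this window. Members of the heat shock list outside the shared group were not counted as a set, so nothing is read from these shares. Capitals mark the matches, which overlap in Hspe1 (2 matches) and lie past the start site in Hsph1.
Hspe1 (chr1:55087898-55088197, plus strand): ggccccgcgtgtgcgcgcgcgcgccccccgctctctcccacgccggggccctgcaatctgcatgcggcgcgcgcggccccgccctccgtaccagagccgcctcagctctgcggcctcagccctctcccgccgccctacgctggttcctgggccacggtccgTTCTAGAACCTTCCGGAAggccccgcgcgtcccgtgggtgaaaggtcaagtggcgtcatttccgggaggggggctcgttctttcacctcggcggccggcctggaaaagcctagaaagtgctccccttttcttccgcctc
Hsph1 (chr5:149636287-149636586, minus strand): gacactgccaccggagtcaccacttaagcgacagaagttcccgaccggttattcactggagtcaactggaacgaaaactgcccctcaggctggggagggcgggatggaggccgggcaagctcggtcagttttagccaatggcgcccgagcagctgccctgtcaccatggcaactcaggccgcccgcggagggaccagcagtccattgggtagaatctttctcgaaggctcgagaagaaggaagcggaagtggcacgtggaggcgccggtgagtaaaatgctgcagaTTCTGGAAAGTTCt

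A few mitochondrial genes were shared rises, with small effects. Of 43 nuclear genes of oxidative phosphorylation tested, 4 were shared rises (background 3.14%) and none a shared fall, with medians of 0.17 and 0.05. Higher were 25 of the 43 in DPP4+ and 5 in DPP4- cells, against 26.7% and 9.63% of all tested genes. Lower were 0 and 1. The DPP4- count was thus near that of all genes. The count of shared rises became 7 without DPP4- cold replicate 1 or replicate 4. Uqcrq, a subunit of complex III, read 426 to 502 at 22 °C and 483 to 629 at 6 °C in DPP4+ cells and 281 to 364 at 22 °C and 327 to 406 at 6 °C in DPP4- cells, with effects of 0.25 (SE 0.083) and 0.23 (SE 0.083). The warm and cold libraries overlapped in both populations. The effects of Cox4i1 of complex IV were 0.22 and 0.17. The mitochondrial genome itself was looked at after these values had been seen: 10 of its genes were tested, 9 were higher in the cold in both populations, 5 were shared rises and the medians were 0.35 and 0.38, while 2 of the 5, ND1 and ND2, met the rule without each library in turn. ND1, a complex I subunit, went from 13630 ± 608 to 18122 ± 756 in DPP4+ cells and from 16977 ± 3307 to 21916 ± 1759 in DPP4- cells (SD, n = 5), with effects of 0.41 (SE 0.11) and 0.39 (SE 0.11). The effects of ND2 were 0.48 and 0.48 and those of CYTB 0.37 and 0.49, while the ribosomal RNA mt-Rnr2 had 0.64 and 0.24. CYTB met the rule in 18 and mt-Rnr2 in 5 of the 20 fits that left out a library. COX2 was the 1 gene without the same sign (-0.17 and 0.23). Its group means were only 13.8 to 18.8, so nothing is read from its signs.

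Among genes of protein and ribosome synthesis, 3 of 30 ribosome biogenesis genes were shared rises (background 3.14%). Higher in DPP4+ cells were 29 of 30 and in DPP4- cells 3 (26.7% and 9.63% of all tested genes), with medians of 0.43 and 0.02. The shared count became 8 without DPP4- cold replicate 5. Bop1, which processes the large subunit rRNA, rose by 0.86 and 0.27, and Nhp2, a protein of H/ACA snoRNPs, by 0.64 and 0.18. Slc3a2, the heavy chain of several amino acid transporters, read 1819 to 2175 at 22 °C and 3128 to 3747 at 6 °C in DPP4+ cells and 2893 to 3609.5 at 22 °C and 3589 to 3983 at 6 °C in DPP4- cells, with no overlap in DPP4+ cells and a narrow one in DPP4- cells. Its effects were 0.79 (SE 0.069) and 0.28 (SE 0.069) (average adjusted p = 9.03e-09, limma). Slc30a1, the zinc exporter, rose by 0.68 and 0.38, and Mgll, the lipase that splits monoacylglycerol, by 0.63 and 0.29.

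Rises among signalling genes included growth factor and interferon targets. Vegfa, the endothelial growth factor, read 1960, 1996, 2293, 1968 and 2188 at 22 °C and 6375, 5705, 5505, 5401 and 3892 at 6 °C in DPP4+ cells. In DPP4- cells Vegfa read 2978, 3456, 3397, 3409.6 and 3225 at 22 °C and 5029, 4201, 4424, 4463 and 3492 at 6 °C. All cold libraries were above all warm ones, and cold replicate 5 was the lowest cold library in both populations. The effects were 1.35 (SE 0.10) and 0.38 (SE 0.10) (average 0.87, adjusted p = 2.34e-09), with a difference of 0.97 (adjusted p = 1.53e-05, limma). Pfkfb3, which makes the activator of glycolytic phosphofructokinase, rose by 0.60 and 0.35. Vegfa and Pfkfb3 were the only shared ones of 25 hypoxia and glycolysis genes tested (background of shared rises 3.14%). Of the 25, 16 were higher in DPP4+ and 3 in DPP4- cells, against 26.7% and 9.63% of all tested genes. Of 32 interferon-stimulated genes, 3 were shared rises (background 3.14%) and none a shared fall, with medians of 0.00 and 0.18. Oasl1 went from 34.2–51.1 to 123–154 in DPP4+ cells and from 66.01–167 to 143–236 in DPP4- cells (effects 1.79 and 0.67), and Mx2, whose locus RefSeq lists as a transcribed pseudogene, had effects of 0.29 and 0.42.

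**Figure D3:**
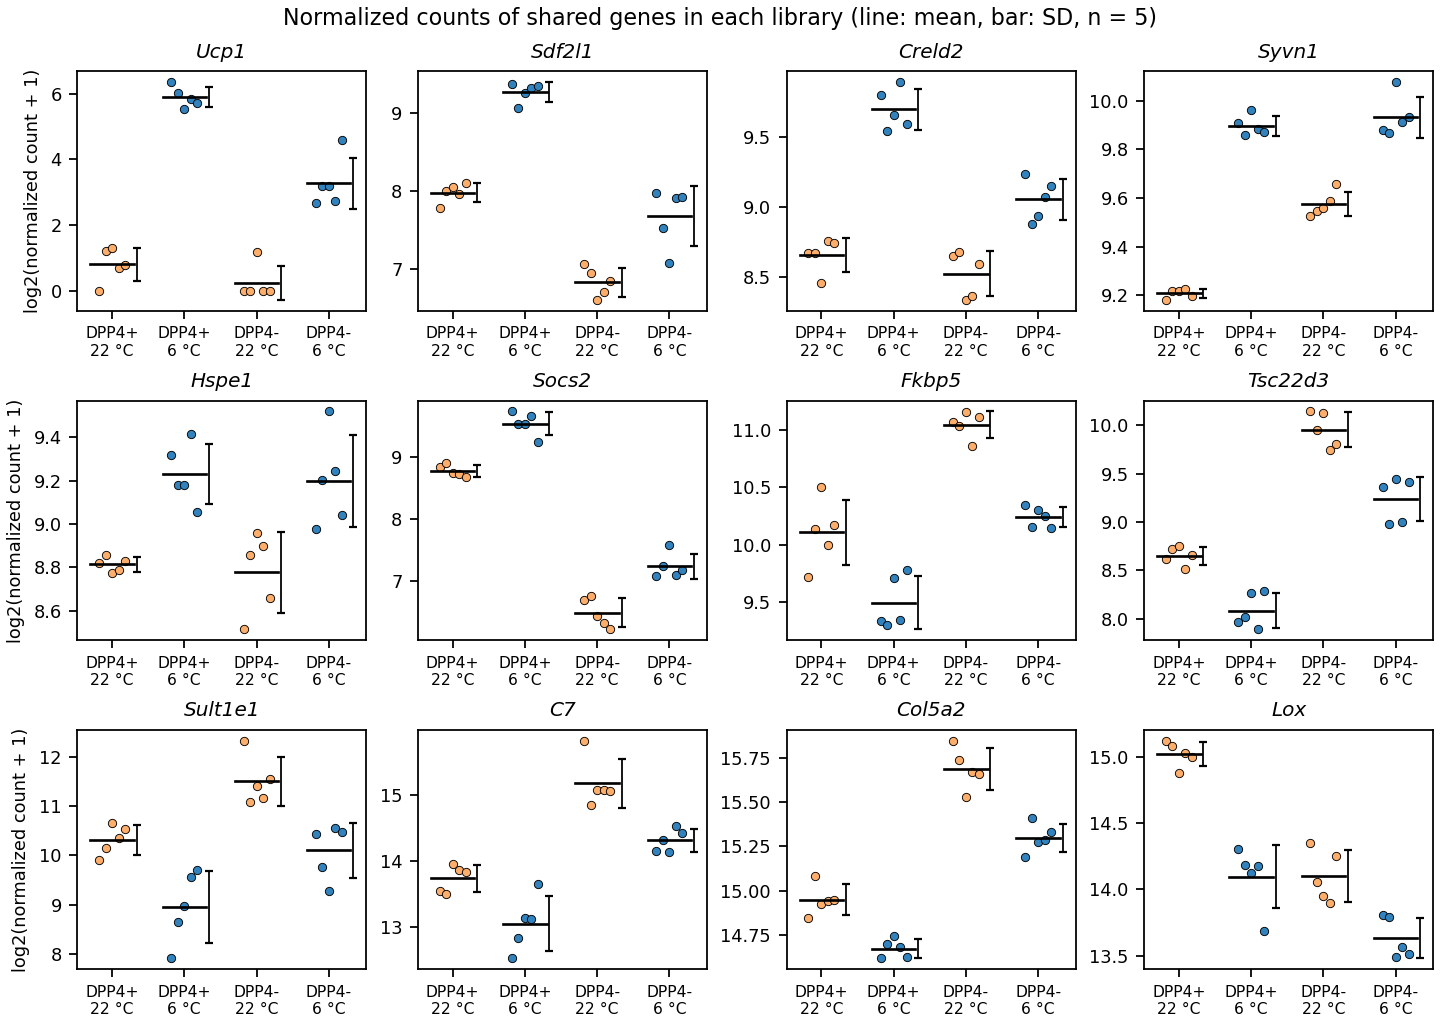
log2(normalized count + 1) of 12 shared genes in each library, 5 libraries per group, orange at 22 °C and blue at 6 °C, with the group mean as a line and the SD as a bar. Ucp1, the ER genes, Hspe1 and Socs2 are higher at 6 °C in both populations, and Fkbp5, Tsc22d3, Sult1e1, C7, Col5a2 and Lox are lower.

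Among the falls, target genes of the glucocorticoid receptor included some with equal or larger effects in DPP4- cells. Of 24 tested, 4 were shared falls (background 3.84%) and none a shared rise (Fam107a, Fkbp5, Zbtb16 and Tsc22d3), with medians of -0.14 and -0.09. Fkbp5, a co-chaperone of the receptor and its standard target gene, fell in both. Fkbp5 read 844, 1124, 1449, 1025 and 1155 at 22 °C and 646, 632, 839.9, 651 and 881 at 6 °C in DPP4+ cells. Fkbp5 read 2142, 2097, 2269.8, 1853 and 2214 at 22 °C and 1303, 1137, 1263, 1219.7 and 1134 at 6 °C in DPP4- cells. The DPP4- groups were far apart, while the highest cold DPP4+ library lay above the lowest warm one. The effects were -0.61 (SE 0.11) and -0.80 (SE 0.11) (average -0.71, adjusted p = 4.73e-07, limma).

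Tsc22d3 (GILZ), a leucine zipper protein through which glucocorticoids act on inflammation, did not overlap in either population. Tsc22d3 read 391, 420.4, 431, 365 and 403 at 22 °C and 249, 257, 306, 236 and 310.4 at 6 °C in DPP4+ cells. Tsc22d3 read 1129, 986, 1115, 858 and 896 at 22 °C and 657, 503, 695, 510.1 and 678 at 6 °C in DPP4- cells. The effects were -0.57 (SE 0.10) and -0.72 (SE 0.10) (average adjusted p = 2.44e-07, limma), with a difference of 0.15 (adjusted p = 0.464). Fam107a, another target, had effects of -0.73 (SE 0.24) and -0.85 (SE 0.24), with overlap in both populations. The other 20 members were not shared: Per1 (0.0065 and 0.068), Klf9 (-0.068 and 0.028) and Sgk1 (-0.077 and -0.15) stood near 0, and Ddit4 was 3.59 in DPP4+ and 0.12 in DPP4- cells. The receptor gene Nr3c1 was -0.74 in DPP4+ and 0.076 in DPP4- cells. The full glucocorticoid element searched (AGAACA, any 3 bases and TGTTCT, on both strands) was in 0 of the 10133 promoters.

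Steroid and retinoid metabolism gave further falls. Sult1e1, the sulfotransferase that inactivates oestrogens, had 1 of the largest falls of similar size in both populations. Sult1e1 read 952, 1138, 1608, 1299.7 and 1489.7 at 22 °C and 239, 401, 499, 751 and 829 at 6 °C in DPP4+ cells. Sult1e1 read 5146, 2157, 2707, 2309 and 3006 at 22 °C and 1384, 873, 615, 1500.2 and 1429.6 at 6 °C in DPP4- cells. No cold library reached the warm range in either population, and DPP4- warm replicate 1 stood far above the others. The effects were -1.36 (SE 0.33) and -1.41 (SE 0.33) (average -1.38, adjusted p = 0.000165, limma), with a difference of 0.043 (adjusted p = 0.955). Of 24 retinoid and steroid genes, 5 were shared falls (background 3.84%) and 1, the oestrogen receptor Esr1, a shared rise (background 3.14%). Of the falls 3 were left without DPP4- warm replicate 1 or DPP4- cold replicate 3. Aldh1a1, which makes retinoic acid, went from 2059–2375 to 1127–1527 in DPP4+ cells and from 855–1026 to 594–894 in DPP4- cells (effects -0.79 and -0.44). The thyroid hormone receptor Thra had effects of -0.35 and -0.28.

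Some genes of the extracellular matrix fell in both populations. Of 24 tested genes of fibrillar collagens and elastic fibres, 8 were shared falls (Col3a1, Col5a2, Col6a1, Col6a2, Col6a3, Col12a1, Fn1 and Lox) and none was a shared rise. The background, here and for the matrix lists below, was 3.84% shared falls and 3.14% shared rises. The list medians were -0.20 in DPP4+ and -0.40 in DPP4- cells. In DPP4- cells 16 members were lower, where 10.9% of all tested genes were. Among the 16 were Col1a1 (-0.35) and Col1a2 (-0.45), whose DPP4+ effects (-0.15 and -0.15) missed the threshold. The count of shared falls was 5 after quantile normalization and 11 after scaling to equal totals, and Col5a2, Col6a1, Col6a2, Col12a1, Fn1 and Lox met the rule without each library in turn. Of 10 small leucine-rich proteoglycans, which bind collagen fibrils, 4 were shared falls (Aspn, Ogn, Podn and Prelp; medians -0.26 and -0.37), and of 19 basement membrane genes 4 were (Lama4, Nid2, Col15a1 and Col4a6; medians -0.08 and -0.30). Of the proteoglycans Podn and Prelp, and of the basement membrane genes Nid2 and Col4a6, met the rule without each library, and the basement membrane count was 2 without DPP4- warm replicate 2, 3 or 4 or cold replicate 2. The summed level of 10 progenitor marker genes includes collagens and was largely bound to follow them, so nothing is read from it about the other markers. Col3a1 alone averaged 267930 and 207840 in DPP4+ and 959610 and 648260 in DPP4- cells at 22 °C and 6 °C. In DPP4+ cells the sum was 413304 to 716949 at 22 °C and 376605 to 565098 at 6 °C, which overlap. In DPP4- cells it was 1520020 to 1850240 and 1038660 to 1499250.

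Col5a2, a chain of the collagen V that starts fibrils, did not overlap in either population. Col5a2 read 29414, 34746, 31056, 31400 and 31603 at 22 °C and 25102, 26589, 27389, 26295 and 25212 at 6 °C in DPP4+ cells. Col5a2 read 58952, 54619, 47221, 52045 and 51732 at 22 °C and 37438, 43505, 39639, 39973 and 41133 at 6 °C in DPP4- cells. The effects were -0.28 (SE 0.073) and -0.39 (SE 0.073) (average adjusted p = 1.97e-05, limma). Lox, the oxidase that cross-links collagen and elastin, went from 30134–35678 to 13169–20214 in DPP4+ cells and from 15286–20937 to 11525–14344 in DPP4- cells, again without overlap. Its effects were -0.93 (SE 0.11) and -0.47 (SE 0.11). Col12a1, a fibril-associated collagen, went from 18296–23064 to 9708–17364 in DPP4+ cells and from the far lower 469.9–791 to 391–503 in DPP4- cells, where the groups overlapped and the change was 3.08% of that in DPP4+ cells. Its effects were -0.57 (SE 0.13) and -0.51 (SE 0.13). Fn1 (fibronectin) had effects of -0.34 and -0.82, and Aspn (asporin) of -0.41 and -1.21, though Aspn left the rule without any of 6 DPP4+ libraries (22 °C replicate 2, 3 or 5 or 6 °C replicate 1, 3 or 4). Nid2 (nidogen 2) of basement membranes had effects of -0.31 and -0.43, Col4a6 of -0.52 and -0.53, and the proteoglycan Podn of -0.46 and -0.27.

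Some secreted signals and receptors were shared falls. Of 26 FGF and VEGF ligands and receptors, 4 were shared falls (background 3.84%), namely Flt1, Vegfc, Nrp1 and Vegfd. By DESeq2 the shared falls were 7. Vegfa and Angptl2 were shared rises (background 3.14%). Nrp1, a coreceptor of VEGF and semaphorins, read 1612 to 1808 at 22 °C and 1089 to 1359 at 6 °C in DPP4+ cells and 3810.2 to 4551 at 22 °C and 2743 to 3515 at 6 °C in DPP4- cells, with no overlap, and its effects were -0.41 (SE 0.071) and -0.37 (SE 0.071). Vegfd, a lymphatic growth factor, fell from 5804–7162 to 1251–1506 in DPP4+ cells and only from 721–851 to 566–707 in DPP4- cells, 2.77% of the DPP4+ change (difference of the effects -1.91, adjusted p = 2.12e-12, limma). The summed level of 12 endothelial markers ranged from 2614 to 3326 and from 2825 to 4300 in DPP4+ cells, and from 1024 to 1429 and from 901 to 1400 in DPP4- cells, at 22 °C and 6 °C. None of its 8 tested members was shared. The Wnt list gave 3 shared falls of 24 (background 3.84%). Of the 24, 12 were lower in DPP4+ and 6 in DPP4- cells, against 25.8% and 10.9% of all tested genes. Higher were 5 and 1. Dkk2, a Wnt inhibitor, had effects of -2.003 and -0.56, and Sfrp1, another, of -0.83 and -0.62.

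Markers of progenitor states were shared in part, where 3.14% of all tested genes were shared rises and 3.84% shared falls. Of 11 CD142+ progenitor markers, 3 were shared falls (Gdf10, Vit and Clec11a), of which Clec11a, a growth factor of bone and marrow stroma, met the rule without each library (-0.45 and -0.77). Of 18 committed preadipocyte markers, 2 were shared falls (Vcam1 and Col15a1), and none of 19 DPP4+ interstitial progenitor markers was shared. Vcam1, an adhesion molecule on the committed preadipocyte list, had effects of -0.52 and -0.28, and Sox9, a transcription factor that holds back adipocyte differentiation, of -1.43 and -0.41. C7, a terminal complement component, fell from 11521–15803 to 5885–12792 in DPP4+ cells, where the groups overlapped, and from 29428–57821 to 17974–23743 in DPP4- cells, where they did not (effects -0.68 (SE 0.18) and -0.86 (SE 0.18)).

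The other largest falls came from genes of varied roles. Il1rn, the interleukin 1 receptor antagonist, fell from 79.98–101 to 1.496–9.71 in DPP4+ cells and from 1.29–13.5 to 0–4.09 in DPP4- cells. Hspb7, a small heat shock protein of muscle, fell from 239–319.6 to 31.6–61.2 and from 6.00–28.4 to 1.35–13.6, and Col8a1, a short-chain collagen, from 707–889.9 to 191–267 and from 13.9–37.8 to 6.75–16.9. For all 3 the DPP4- levels were low, were highest in warm replicate 1, the warm DPP4- library with the most Dpp4, and changed by 5.22%, 3.66% and 2.61% of the DPP4+ change. They met the rule without that library, and the part of DPP4+ cells in them was not tested. Fam160a1 fell from 113–152 to 49.2–65.7 and from 51.4–99.9 to 25.5–51.8 (effects -1.15 (SE 0.19) and -1.11 (SE 0.19)), with a narrow overlap in DPP4- cells. Rtn1, a reticulon of the ER membrane, fell from 105–129 to 46.4–55.9 and from 46.1–87.4 to 26.3–50.8. Fyb2 (an adaptor protein) had effects of -1.77 and -1.33, Kcnab1 (a potassium channel subunit) of -2.25 and -0.82, and Frmd3 of -1.84 and -0.97. Angpt4, a ligand of the endothelial receptor Tie2, had effects of -2.35 and -1.01, and P4ha3, which hydroxylates collagen prolines, of -0.90 and -0.90. The DPP4- levels of P4ha3 were low (15.1–39.0 and 5.65–16.4) and changed by 3.28% of the DPP4+ change, and for P4ha3, as for Col12a1 and Vegfd above, the part of DPP4+ cells was not tested. AI427809, Trip13 and Ptprb were also among the 15 largest falls, and the last 2 met the rule in only 13 and 9 of the 20 fits that left out a library.

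Several lists had no shared member. They were the circadian clock (22 tested), cAMP and CREB targets (24), immediate early and dissociation genes (27), cholesterol synthesis (26), glutathione and NRF2 targets (26), p53 targets (24), MHC class I (17), IL-6 family genes (13), adrenergic receptors (6) and the mature adipocyte and DPP4+ marker lists given above. Over all tested genes 3.14% were shared rises and 3.84% shared falls. At these shares lists of such sizes would hold few shared genes or none, so nothing is read from their absence. The NRF2 targets, which guard against oxidants, were higher in DPP4+ cells for 21 of 26 and in DPP4- cells for 0 (medians 0.75 and -0.03). Over all tested genes 26.7% and 9.63% were higher, and nothing is read from the 0 of 26. The cAMP targets had medians of 0.26 and -0.02.

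**Figure D4:**
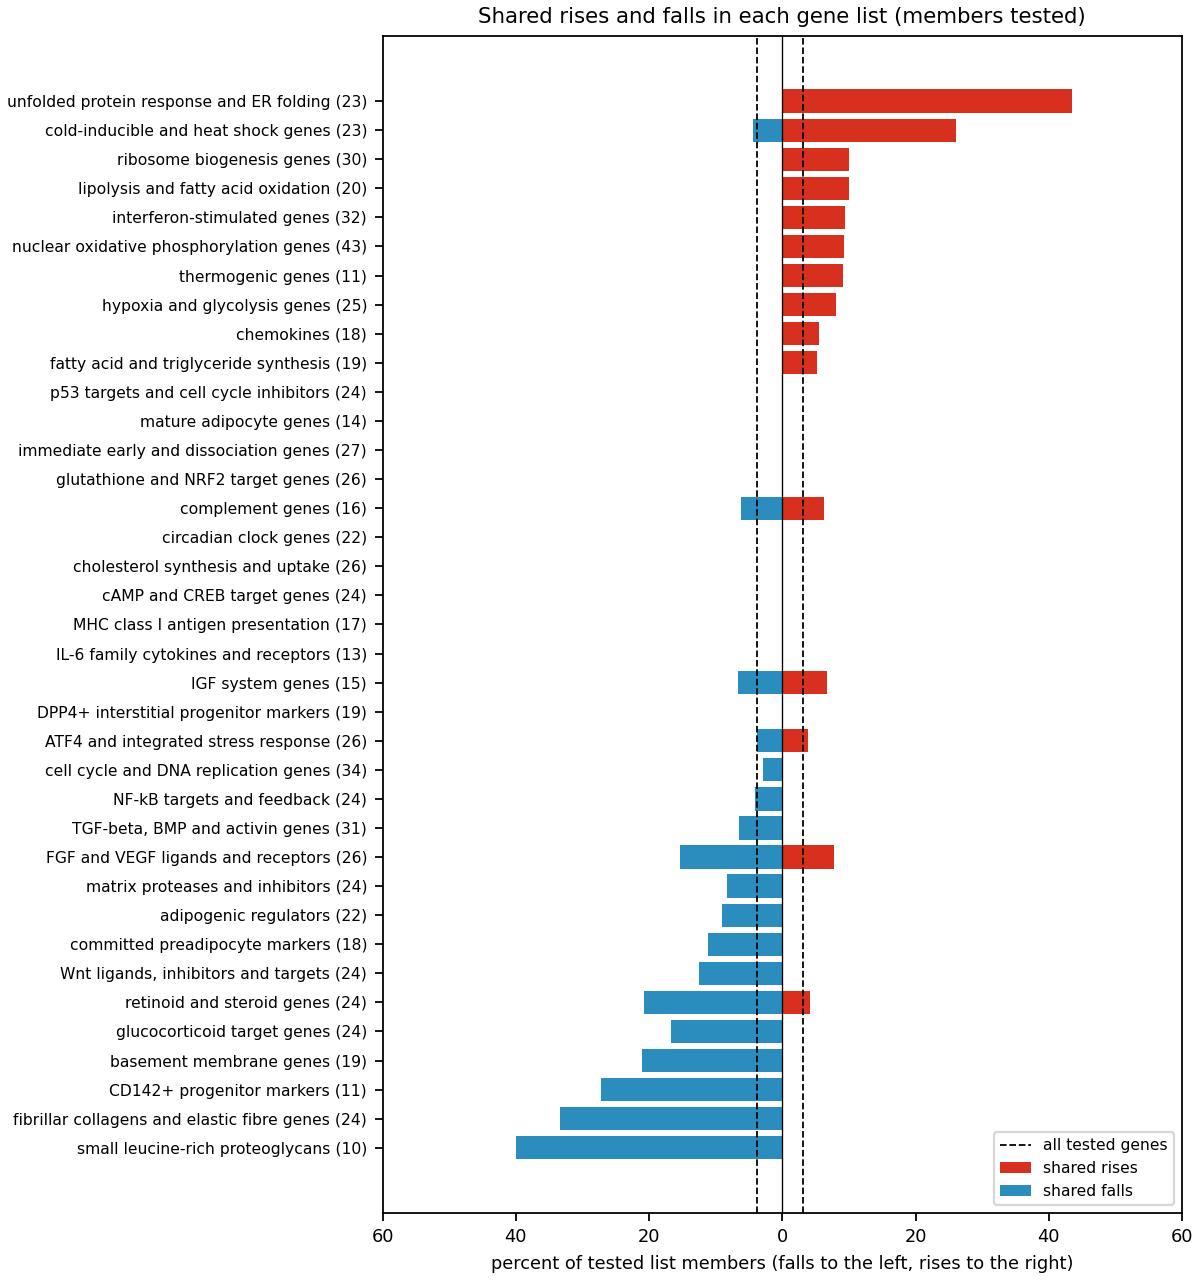
Percent of the tested members of each gene list (number tested in brackets, lists with at least 8) that were shared rises (right) or shared falls (left), with dashed lines at the values for all tested genes, 3.14% and 3.84%. ER folding and heat shock genes extend farthest to the right, and small leucine-rich proteoglycans and fibrillar collagens farthest to the left.

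The shared falls also differed from all tested genes in length and position, features the rule did not use, as did the falls of each population by itself. Of 12837 tested genes with a position in the RefSeq table, the shared falls had a median span on the genome of 44.6 kb and the shared rises of 17.4 kb, against 24.0 kb for all. With genes divided by span into 5 bins of equal size, 7.48% of the longest bin were shared falls and 1.71% shared rises, against 2.10% and 3.89% of the shortest bin. Of 419 tested genes on the X chromosome, 43 (10.3%) were shared falls and 6 (1.43%) shared rises. On the other chromosomes 3.67% were shared falls, and the range over the 19 autosomes was 1.10 to 5.98%. Within the longest bin, 20 of 103 X genes (19.4%) and 6.98% of the others were shared falls, and outside it 7.28% and 2.85%. The median effect of X genes was -0.09 in DPP4+ and -0.09 in DPP4- cells. None of this was particular to the shared falls. From the shortest to the longest bin (2568 genes each), genes lower at unadjusted p under 0.05 (limma) went from 495 to 831 in DPP4+ cells. In DPP4- cells they went from 160 to 489, and genes with opposite signs from 3.08% to 6.31%. On the X chromosome 142 of 419 genes were lower in DPP4+ and 84 in DPP4- cells, against 3205 and 1321 of 12418 elsewhere. Tsc22d3, Col4a6 and Vegfd are X-linked members already described, and Gria3, a glutamate receptor subunit picked after its values were seen, had effects of -0.95 and -0.80. These shares were read from 1 setting of the processing and are given with no test, as neighbouring genes are not independent.

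**Figure D5:**
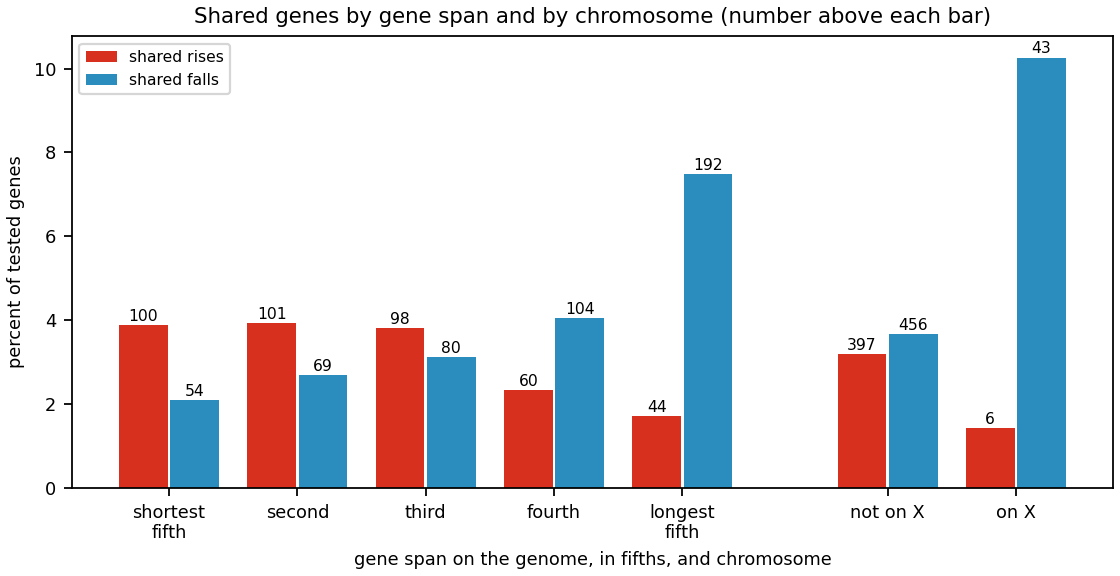
Percent of tested genes that were shared rises (red) or shared falls (blue), by 5 bins of gene span on the genome and by chromosome, with the number of genes above each bar. Shared falls go from 2.10% in the shortest to 7.48% in the longest bin and reach 10.3% on the X chromosome.

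Genes with opposite signs (623) stood beside the 911 shared ones. Inhba, the activin A subunit, went from 235–331 to 1026–2074 in DPP4+ cells and from 13.5–30.7 to 1.88–19.1 in DPP4- cells. Efnb2, a membrane ligand of Eph receptors, went from 497–585 to 731–1221 and from 485–739 to 182–517, and Adamtsl2, a microfibril protein, from 16.7–32.1 to 73.3–147 and from 46.1–100.3 to 35.8–49.1. The reverse held for Car3, a carbonic anhydrase abundant in adipocytes, which went from 484–634 to 146–273 in DPP4+ and from 48.6–399 to 383–1054 in DPP4- cells, and for Lypd1 (from 6.26–12.4 to 2.99–4.26 and from 22.96–70.6 to 81.8–132). The differences of the effects were 4.01, 1.89, 3.37, -3.13 and -2.24 in this order, with adjusted p of 7.7e-06, 0.000119, 5.56e-09, 0.000596 and 2.37e-05 (limma). The same libraries chose these genes by their opposite signs, so a difference was largely bound to pass and these p-values are descriptions.

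Markers of other cell types were summed in each library. Pericyte and smooth muscle markers summed to 10384 to 13419 at 22 °C and 4618 to 7639 at 6 °C in DPP4+ cells, and to 4481 to 5999 and 5344 to 7263 in DPP4- cells. Of 14 of these markers tested, Kcnj8 and Abcc9 were shared rises (background 3.14%), neither of them without DPP4- warm replicate 1 or cold replicate 4. In DPP4+ cells 8 of the 14 were lower, where 25.8% of all tested genes were. Granulocyte and mast cell markers summed to at most 32.9 in DPP4+ libraries but reached 416 in a DPP4- library at 22 °C and 2139 in DPP4- cold replicate 2, and none of the 7 tested was shared. Both mesothelial and epithelial markers and Schwann cell markers separated by temperature in DPP4- cells. The mesothelial and epithelial sum went from 28.4–59.9 to 65.7–110.4 in DPP4- cells and from 52.3–82.7 to 65.8–92.1 in DPP4+ cells. The Schwann cell sum, most of it Pmp22, went from 2715–3162 to 2038–2709 in DPP4- cells and from 3716–4079 to 3999–4870.4 in DPP4+ cells. None of the 2 and 6 members tested was shared. Macrophage markers summed to 192 to 765 over all libraries, lymphocyte markers to at most 105, and Cd14 and Tnnt3 were the only shared members of the macrophage and skeletal muscle lists. Their part in the shared changes was not tested. Without DPP4- cold replicate 2 the counts were 407 shared rises and 508 shared falls.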

How the data were processed

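RNA was extracted with an RNAqueous micro kit and made into libraries with NEBNext Ultra II, per the labels' protocols. Reads were counted with featureCounts 1.4.6 after trimming by Trim Galore 0.4.1, per the submitters' processing notes, which also list HISAT2 2.0.1, DESeq2 1.6.3 and the mouse builds mm10 and GRCm38. The gene annotation and the strand setting are not given in the sources used here, so overlapping genes, or a gene and its antisense partner, cannot be told apart. Each deposited value is the authors' normalized signal, a read count divided by a size factor of its library, for 27179 Entrez genes in 20 libraries. Dividing each library by the value of 1 read gave whole reads for 100% of values (tolerance 0.1 read), 8.49 to 18.8 M per library. The 13057 genes whose mean normalized count reached 10 entered a limma 3.58.1 model (trend, robust) of log2(value + 1), 1 mean per group, 16 residual degrees of freedom, Benjamini-Hochberg adjustment over all tested genes and two-sided tests. Each group mean weighs 5 libraries alike, and the average cold effect is the mean of the effects in both populations. Members, gene lists and tests were chosen with earlier results of these data known. The p-values in each population chose the shared genes, so those effects, and the p-values of their average, are descriptions. Named genes were the 15 largest shared rises and falls by the smaller of their effects with a group mean of at least 50, up to 3 shared genes per list with the smallest p, and the 6 largest opposite ones each way; some of them are not reported here. Showing mainly those that met the rule without every single library was decided after their values were seen. Symbols and positions came from RefSeq tables (GRCm38.p6), which held 25275 of the IDs, and 26 symbols turned into dates were restored through their IDs. Alternatives were TMM with edgeR 4.0.16, DESeq2 1.42.0, other scalings, pseudocounts and filters, blocks on the replicate number and the removal of each library. The scripts were tested on simulated data.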

Additional observations from a re-analysis of the deposited data

Results flagged for a closer look

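Among 260 groups of 5 libraries (65 genes described with values), 20 held a library far from the other 4, where chance gives about 1 in 20. Of these, 7 were in DPP4+ cold replicate 5: Car3 (146, others 237 to 273), Col8a1 (191, others 246 to 267), Efnb2 (731, others 1080.4 to 1221), Mgll (2152.5, others 1366 to 1519.5), Nid2 (2074, others 2942 to 3223), Nrp1 (1089, others 1302 to 1359) and Slc30a1 (229.6, others 282 to 298). A further 5 were in DPP4- warm replicate 1: C7 (57821, others 29428 to 34561), Dpp4 (105, others 52.2 to 67.6), Lypd1 (22.96, others 59.2 to 70.6), Nnat (82.4, others 139.7 to 149) and Sult1e1 (5146, others 2157 to 3006). The other outlying values were Adamtsl2 (32.1) in DPP4+ warm replicate 2, Nhp2 (397) in DPP4+ warm replicate 4, Ren1 (1.501) in DPP4- warm replicate 2 and (5.45) in DPP4- cold replicate 2, Ucp1 (1.26) in DPP4- warm replicate 3 and (23.05) in DPP4- cold replicate 5, Dpp4 (137) in DPP4- cold replicate 1, and Socs2 (190.3) in DPP4- cold replicate 3. The Ren1 value of 1.501 and the Ucp1 value of 1.26 are each 1 read, beside 0 in the other libraries of the group. Such a group was bound to be found, so these 2 say nothing of their libraries.

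The cold effect differed between the populations (adjusted p under 0.05, limma) for 28 of the 65 genes. The effect in DPP4+ minus that in DPP4- cells was positive for rises: 2.06 (Ucp1), 2.08 (Masp1), 1.88 (Hsph1), 1.69 (Celsr3), 1.12 (Oasl1), 1.03 (Cyp4b1), 0.97 (Vegfa), 0.64 (Plekha6), 0.59 (Bop1), 0.51 (Slc3a2), 0.51 (Creld2), 0.46 (Nhp2) and 0.33 (Syvn1). It was negative for falls: -2.33 (Il1rn), -1.91 (Vegfd), -1.51 (Hspb7), -1.44 (Dkk2), -1.43 (Kcnab1), -1.34 (Angpt4), -1.02 (Sox9), -0.87 (Frmd3), -0.46 (Lox) and -0.35 (Aldh1a1). Among genes of opposite sign, which the same libraries had chosen for that trait, the difference was 4.01 (Inhba), 3.37 (Adamtsl2), 1.89 (Efnb2), -2.24 (Lypd1) and -3.13 (Car3).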

How the results depend on the processing

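Each of the 911 shared genes kept its sign under every alternative run that tested it, and no value of a named gene was reversed. Setting library totals equal gave 763 shared rises, 296 shared falls, and 2817 higher and 602 lower genes in DPP4- cells; the cause was not tested. Stricter rules gave fewer genes by construction: 90 rises, 173 falls and 131 opposite at an adjusted p under 0.05 in each population, 152, 238 and 236 at an unadjusted p under 0.01, and 26, 70 and 92 at 1.5-fold or more. The other scalings, filters, pseudocounts and tools left all these counts within 1.5 times. Leaving out 1 library gave 357 to 442 shared rises, 457 to 578 shared falls, 540 to 701 opposite genes, 2120 to 2511 genes higher and 2154 to 2554 lower on average, and 3805 to 4596 whose effects differed. In DPP4+ cells it gave 3238 to 3560 higher and 3139 to 3444 lower, and in DPP4- cells 1131 to 1364 and 1310 to 1543.

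Replicate numbers were shared between groups but were not taken as pairs, as correlations of deviations of same-numbered libraries ran from -0.228 to 0.267 and only 2 of 5 were over 0.1 in each pair of groups. Between the populations they were above 0 for 5 of 5 numbers at 6 °C (0.0166 to 0.107) and 5 of 5 at 22 °C (0.029 to 0.156), and 4 and 2 of 5 libraries correlated best with their own number. With the replicate number as a block, 385 of the 410 rises and 474 of the 501 falls met the rule, and with a random block (consensus correlation 0.0492) 406 and 498 did. The shallowest library, at 8.49 M reads, was a DPP4- cold one, and low genes such as Ucp1 in DPP4- cells rest on few reads.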

Other observations

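Groups not described above held few shared genes, where 3.14% of all tested genes were shared rises and 3.84% shared falls. Of 16 complement genes Masp1 was the 1 shared rise and C7 the 1 shared fall, and of 26 genes of the integrated stress response Slc3a2 rose and Aldh1l2, a mitochondrial folate enzyme, fell (-0.71 in DPP4+ and -0.44 in DPP4- cells) in both. Of 7 metallothionein and zinc transport genes tested, Slc30a1 was the 1 shared rise. Of 34 cell cycle genes 18 were lower in DPP4+ cells and 1 in DPP4- cells, against 25.8% and 10.9% of all tested genes. The medians were -0.50 and 0.15, and 1 gene was a shared fall. The core of the cyclic AMP response element (TGACG, both strands) was in 33.1% of the promoters of shared rises and 21.8% of those of shared falls. It was in 31.9% of those of all tested genes. In the same order the full element (TGACGTCA) was in 2.84%, 1.27% and 3.35%. Another motif, the E-box (CACGTG), was in 9.15%, 6.08% and 10.3%. A lower share in falls was thus not particular to TGACG, and all these shares are descriptions.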
